A study of Homo sapiens with 6 samples.

Results

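The genes described here encode the pre-B cell receptor with its first signalling proteins, and the enzymes that cut and extend antigen receptor genes. They were taken by symbol from the table of gene levels, and all 10 symbols (VPREB1, IGLL1, VPREB3, CD79A, CD79B, BLNK, BTK, RAG1, RAG2 and DNTT) were found among its 11911 genes. RNA was measured by sequencing in RS4;11, an established human B-cell precursor acute lymphoblastic leukemia line that carries the KMT2A::AFF1 fusion. The comparison asks how RNA levels differ once asparagine, an amino acid that these leukemias take up from their surroundings, is absent. Asparagine-depleted cells gave 3 libraries, and the series places their RNA collection 16 hours after withdrawal. Cells with asparagine gave the other 3 libraries. Every sample carries the same medium entry, an asparagine-free lymphocyte medium with dialyzed serum. Since that entry names no asparagine, it may not describe the arm with asparagine in full, and whether that arm's serum was dialyzed is uncertain. The short column name of the depleted arm could stand for asparaginase, which the sample titles do not mention. The column names of both arms also begin with Ctrl, a tag that the sample titles do not explain. All libraries come from this line alone, and nothing says that the samples of an arm were separate cultures, so p-values measure the spread between libraries, which may be technical.

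A B-cell precursor first rearranges its heavy chain gene. The RAG1 and RAG2 proteins cut DNA at recombination signals, and terminal transferase, the product of DNTT, adds bases without a template at the joints. The new heavy chain is then displayed with a surrogate light chain, built from the products of VPREB1 and IGLL1, and with the signalling proteins CD79A and CD79B. This pre-B cell receptor tests the heavy chain and signals through the kinase SYK, the linker BLNK and the kinase BTK. Signalling is known to drive a burst of division and to turn the surrogate light chain and RAG genes down in normal precursors.

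The surrogate light chain genes VPREB1 and IGLL1, and VPREB3, a relative of VPREB1, all lie on the long arm of chromosome 22, in or beside the immunoglobulin lambda region. They had the most negative log2 fold changes of the 10 genes before any correction for GC content. The 250 bases before their RefSeq start sites (build GRCh38.p14) are printed because these genes moved together. Capitals mark matches to the motifs searched, read 5′ to 3′ on each gene's own strand.
VPREB1 (chr22:22244536-22244785, plus strand): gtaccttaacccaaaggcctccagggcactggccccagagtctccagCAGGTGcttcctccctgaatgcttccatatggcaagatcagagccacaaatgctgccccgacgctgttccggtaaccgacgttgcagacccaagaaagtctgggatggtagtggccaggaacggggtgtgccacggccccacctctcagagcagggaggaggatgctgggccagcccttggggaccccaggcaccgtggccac
IGLL1 (chr22:23580291-23580540, minus strand): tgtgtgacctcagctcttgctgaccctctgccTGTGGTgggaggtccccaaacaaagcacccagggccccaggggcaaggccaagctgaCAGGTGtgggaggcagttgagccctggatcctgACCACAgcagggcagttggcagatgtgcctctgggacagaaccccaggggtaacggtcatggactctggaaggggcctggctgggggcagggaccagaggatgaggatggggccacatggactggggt
VPREB3 (chr22:23754426-23754675, minus strand): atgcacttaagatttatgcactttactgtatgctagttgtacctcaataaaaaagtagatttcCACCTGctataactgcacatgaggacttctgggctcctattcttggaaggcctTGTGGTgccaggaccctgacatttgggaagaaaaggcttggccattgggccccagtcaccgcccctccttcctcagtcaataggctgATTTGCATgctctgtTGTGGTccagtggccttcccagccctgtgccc

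Both strands were searched for 7 motifs of factors known in B-cell precursors or in the amino acid response. The E-box CACCTG, a sequence that E2A proteins such as TCF3 can bind, was found in all 3 windows. Counted from the RefSeq start, it began 203 bases before VPREB1, 161 before IGLL1 and 187 before VPREB3. A window was matched and searched for 9 of the 10 genes, all but CD79B. The same E-box was in the windows of 6 of these 9, the others being CD79A, BLNK and DNTT, and in 17.5% of 35116 promoter windows of the same length. The octamer ATTTGCAT, a site of OCT factors, was found at VPREB3 alone, 47 bases before the RefSeq start, and in 1.63% of all windows. The RUNX core TGTGGT was present at IGLL1, VPREB3 and CD79A and in 11.0% of all windows. The later of its matches at VPREB3, 32 bases before the RefSeq start, lies inside the gene as GENCODE places it. The E-box CAGCTG was found at BLNK and RAG1 (14% of all windows), and the ETS core GGAAGT at CD79A, BLNK and BTK (19.5%). The RAG1 window (chr11:36510103-36510352) also holds the start of TRAF6, at 36510272 on the opposite strand. The CAGCTG match there, 115 bases before the RefSeq start of RAG1, lies inside TRAF6 as GENCODE places that gene. GENCODE places the start of RAG1 further on, at 36510709. Which of these genes the match could serve was not tested. Neither the EBF1 palindrome, TCCC and GGGA spaced by any 2 bases (1.06% of all windows), nor TGATGNAA, the core of the element that ATF4 and C/EBP proteins share (3.14%), occurred in the windows of these 9 genes. None of these motifs overlapped another in the 3 printed windows. A match is a stretch of letters and not a measured binding site.

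The libraries held 29971364 to 51127073 reads in the table. Their values are normalized CPM, reads scaled by the authors in a way the sources used here do not give. Column totals were 918783 to 952458 in depleted libraries and 1018770 to 1031230 with asparagine, and a change in total RNA per cell cannot be seen. In bulk samples, fewer cells that express a gene and less of its RNA per cell cannot be told apart. Depleted library 1 stood apart, with Pearson's r of 0.933 to 0.940 across genes to depleted libraries 2 and 3, against 0.996 between those and 0.992 to 0.996 among the libraries with asparagine. Of 10 markers of B-cell precursors, 8 were measured, with summed levels of 2871 to 3500 in depleted cells and 3073 to 3224 with asparagine, while MME and CD34 were not analysed here. CD79A, VPREB1 and DNTT among these 8 are also genes described here. The sums cover moves both ways, since by the limma test given below 1 marker rose (PAX5), 3 fell (CD22, VPREB1 and DNTT) and 4 did not pass. The 8 listed markers of T cells were not analysed here. Among other types, CSF1R and ITGAM of 8 myeloid markers together reached 17.5 to 31.0 in depleted cells and 32.1 to 33.3 with asparagine. Of 7 erythroid and megakaryocyte markers only ITGA2B (0.552 to 1.01 and 2.21 to 3.20), of 6 fibroblast and epithelial markers only COL1A1 (0.938 to 2.35 and 3.61 to 4.47), and of 5 plasma cell markers only XBP1 (793 to 867 and 344 to 354), a stress response gene in many cells, had values.

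Of the 10 genes, 5 fell in depleted cells and 0 rose (limma on log2(CPM + 1), Benjamini-Hochberg adjusted p under 0.05 over 11892 genes). Lower calls made up 26.2% and higher calls 25.1% of all tested genes. Those that fell were VPREB1, IGLL1, VPREB3, CD79B and DNTT. The median log2 fold change of the 10 genes was -0.75, beside 0.0098 over all genes tested. In 8 of the 10, every depleted library lay below every library with asparagine, a pattern found in 30.8% of all tested genes, while in 30.2% every depleted library lay above.

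**Figure D1:**
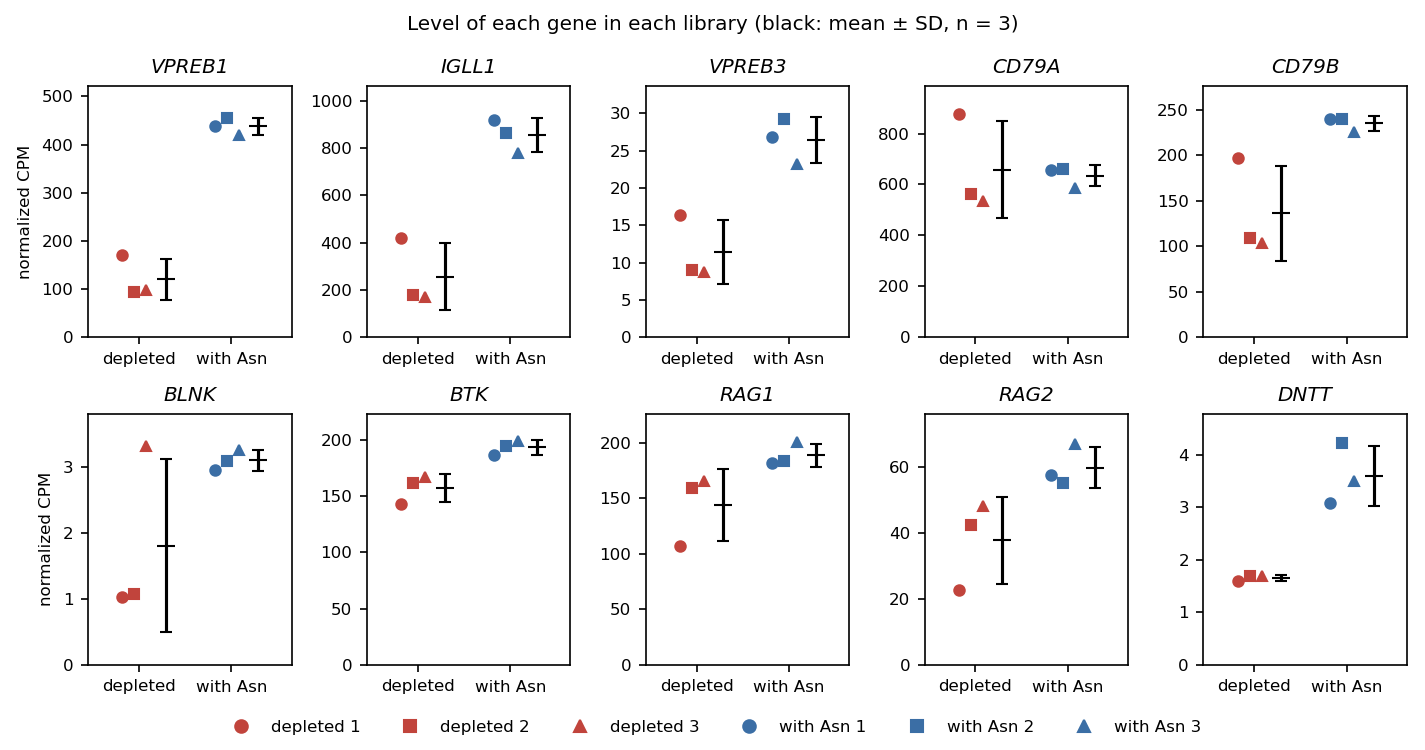
Each panel plots 1 gene's normalized CPM (vertical axis, from 0) in the 3 depleted libraries (red, left) and the 3 libraries with asparagine (blue, right), with a different symbol for each replicate number and the mean ± SD in black. The groups overlap only for CD79A and BLNK, and depleted library 1 is the highest depleted library in the top row and the lowest in the bottom row.

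VPREB1, which encodes the variable-like part of the surrogate light chain (ENSG00000169575, chromosome 22, 22244675 to 22245515), had 170, 94.1 and 97.3 CPM in depleted libraries 1, 2 and 3, against 438, 455 and 420.1 CPM with asparagine. Every depleted library was far below the lowest library with asparagine, at 38.8%, 21.5% and 22.2% of the mean with asparagine. The level was 3.64-fold lower, with 120.4 ± 42.9 CPM in depleted cells and 438 ± 17.4 CPM with asparagine (SD, n = 3 each). The difference was -1.91 on the log2 scale (SE 0.23, adjusted p = 0.00116 by limma), which placed VPREB1 at rank 182 from the most negative of 11892 genes.

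IGLL1, which encodes the constant-like part known as lambda 5 (ENSG00000128322, chromosome 22, 23573125 to 23580308), had 418, 180.3 and 171 CPM in the depleted libraries, against 920.2, 863 and 779.5 CPM with asparagine. The groups did not overlap, and depleted library 1 was at 48.9% of the mean with asparagine, where the other depleted libraries were at 21.1% and 20.1%. IGLL1 was 3.33-fold lower (-1.86 on the log2 scale, SE 0.33, adjusted p = 0.00477 by limma). IGLL1 shares exact 50-base words with the transcripts of IGLC1 and IGLL5 (1.90% of its words each) and with the pseudogene IGLL3P (6.34%), among others, and 4.76% of its exonic bases lie under AP000345.1 on the opposite strand, so the placing of those reads is uncertain.

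VPREB3, a relative of VPREB1 whose product is known to bind newly made immunoglobulin chains inside the cell (ENSG00000128218, chromosome 22, 23752743 to 23754468), was far less abundant. It had 16.4, 9.01 and 8.77 CPM in the depleted libraries, against 26.8, 29.3 and 23.2 CPM with asparagine. Again no depleted library reached the lowest library with asparagine. VPREB3 fell 2.32-fold (-1.20 on the log2 scale, SE 0.25, adjusted p = 0.00794 by limma). VPREB1, IGLL1 and VPREB3 each still passed when any 1 library was left out.

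The genes of the signalling pair differed from each other. CD79A, whose cytoplasmic tail carries an activation motif that SYK reads (ENSG00000105369, chromosome 19, 41877120 to 41881372), had 877, 561 and 535 CPM in the depleted libraries, against 656, 663 and 586 CPM with asparagine. Depleted library 1 was above and depleted libraries 2 and 3 were below all libraries with asparagine. The log2 fold change was 0.016 (95% interval -0.46 to 0.49, limma adjusted p = 0.950). CD79B, the partner chain with its own activation motif (ENSG00000007312, chromosome 17, 63928740 to 63932354), had 197, 108.6 and 103.8 CPM in the depleted libraries, against 239.7, 239.5 and 226 CPM with asparagine. The groups did not overlap, with depleted library 1 at 83.7% of the mean with asparagine and the other depleted libraries at 46.2% and 44.2%. CD79B fell 1.72-fold (-0.84 on the log2 scale, SE 0.25, adjusted p = 0.0273 by limma). Leaving out depleted library 1 gave -1.14 (limma adjusted p = 1.89e-07), and leaving out any other single library ended the call (adjusted p = 0.0667 to 0.0932). In the annotation, 13.8% of the exonic bases of CD79B also belong to AC127029.3, a gene on the same strand.

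Ratios taken within a library compare these genes free of that library's scaling. The transcripts of VPREB1, IGLL1, VPREB3, CD79A and CD79B have similar GC content, 57.6% to 63.0%. VPREB1 over CD79A was 0.194, 0.168 and 0.182 in the depleted libraries, against 0.668, 0.687 and 0.717 with asparagine. Depleted library 1 thus lay beside the other depleted libraries in this ratio, whose log2 change was -1.93. IGLL1 over CD79A was 0.476, 0.321 and 0.320 in the depleted libraries, against 1.40, 1.30 and 1.33 with asparagine. VPREB3 over CD79A averaged 0.0170 ± 0.0014 in depleted cells and 0.0416 ± 0.0024 with asparagine (SD, n = 3 each). CD79B over CD79A was 0.224, 0.193 and 0.194 in the depleted libraries, against 0.365, 0.362 and 0.385 with asparagine, a log2 change of -0.87. The groups did not overlap in any of these 4 ratios. By contrast VPREB1 over IGLL1 was 0.407, 0.522 and 0.568 in the depleted libraries, against 0.477, 0.527 and 0.539 with asparagine, and the groups overlapped (two-sided exact permutation p = 0.80). For each of the 4 ratios to CD79A the two-sided exact permutation p was 0.10, the smallest that 3 against 3 libraries allow, and 0.12 after adjustment over 6 ratios. These ratios were chosen after the values had been seen.

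**Figure D2:**
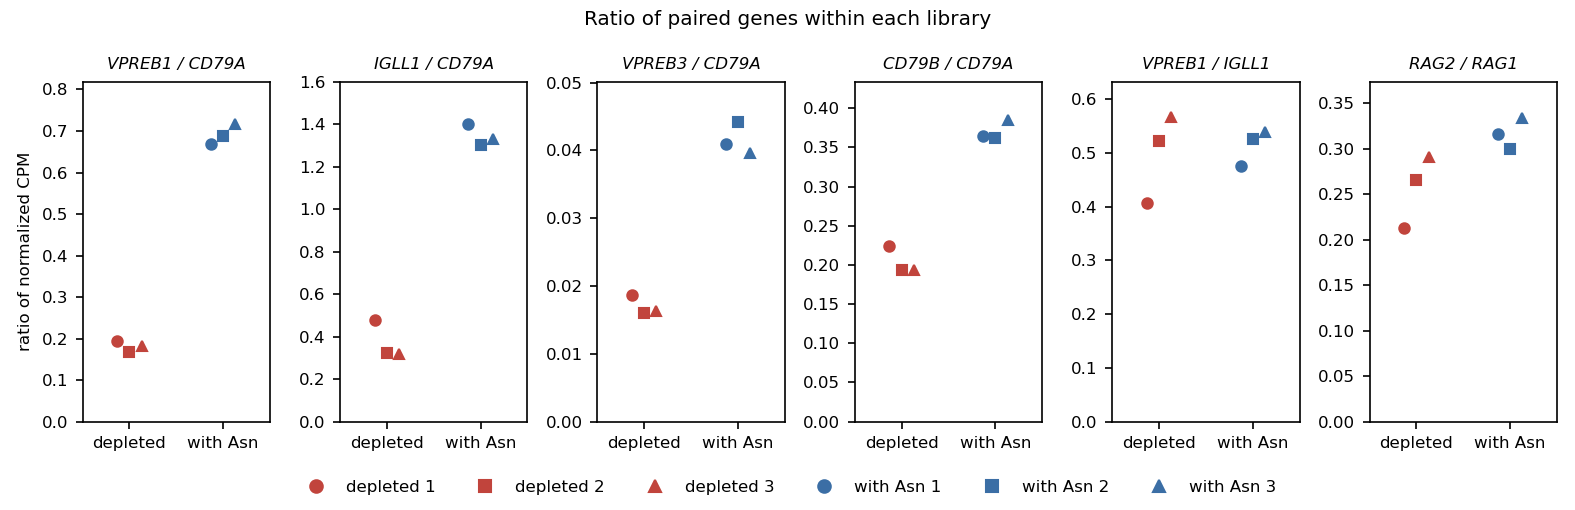
Each panel plots a ratio of normalized CPM within a library (vertical axis, from 0, not corrected for gene length) for the depleted libraries (red, left) and those with asparagine (blue, right), with a different symbol for each replicate number. The 4 ratios to CD79A are lower in every depleted library, the VPREB1 to IGLL1 ratio overlaps between the groups, and RAG2 over RAG1 is lower in every depleted library.

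BLNK, the linker that brings BTK and phospholipase C to the receptor (ENSG00000095585, chromosome 10, 96191702 to 96271587), was near the floor of the measurement, on 35 to 164 reads. It had 1.03, 1.07 and 3.32 CPM in the depleted libraries, against 2.95, 3.09 and 3.27 CPM with asparagine. Depleted library 3 was above every library with asparagine and the other depleted libraries were below them. The log2 fold change was -0.64 (95% interval -1.34 to 0.064, limma adjusted p = 0.109), and without depleted library 3 it was -1.0 (adjusted p = 0.00495). Of its exonic bases, 9.71% are shared with ZNF518A on the opposite strand, where reads of both genes could be told apart only by strand-specific counting, and the strand setting is not stated. ZNF518A itself had 97.1 ± 55.1 CPM in depleted cells and 39.4 ± 10.3 CPM with asparagine (SD, n = 3 each), and its part in the BLNK values was not tested.

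BTK, the kinase whose loss stops human B-cell development (ENSG00000010671, chromosome X, 101349447 to 101390796), had 143, 161 and 167 CPM in the depleted libraries, against 186, 195 and 199 CPM with asparagine. The groups did not overlap, yet the difference was small, at 1.23-fold. On the log2 scale it was -0.30 (SE 0.11, 95% interval -0.57 to -0.028), which did not pass the test (limma adjusted p = 0.0640).

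The recombinase genes lie next to each other on chromosome 11, RAG1 (ENSG00000166349) at 36510709 to 36593156 and RAG2 (ENSG00000175097) at 36575574 to 36598279 on the opposite strand. They share 588 exonic bases in the annotation, which are 7.52% of RAG1 and 16.8% of RAG2, and no strand setting is stated for the counting. RAG1, the subunit with the catalytic site, had 107, 159 and 165 CPM in the depleted libraries, against 182, 184 and 200.8 CPM with asparagine. All depleted libraries were lower, depleted library 1 the most. Its log2 fold change of -0.41 (SE 0.19) did not pass (limma adjusted p = 0.1000). RAG2, the subunit that reads a chromatin mark, had 22.8, 42.3 and 48.2 CPM in the depleted libraries, against 57.5, 55.1 and 67.1 CPM with asparagine. Depleted library 1 stood at 38.1% of the mean with asparagine and the other depleted libraries at 70.7% and 80.5%. Its log2 fold change of -0.71 (SE 0.28) did not pass (limma adjusted p = 0.0671).

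RAG2 over RAG1 was 0.213, 0.266 and 0.291 in the depleted libraries, against 0.317, 0.299 and 0.334 with asparagine. The groups came close without overlapping (two-sided exact permutation p = 0.10, the smallest possible, and 0.12 adjusted). C11orf74, which lies over 9.17% of the exonic bases of RAG2 on the opposite strand, was measured on only 51 to 264 reads. C11orf74 fell to 1.65 ± 0.39 CPM in depleted cells, against 4.32 ± 0.82 CPM with asparagine (SD, n = 3 each, log2 fold change -1.01, limma adjusted p = 0.00449). The nearest measured genes outside the locus were TRAF6 and API5. TRAF6, on the strand opposite to RAG1, starts close by at 36510272, and API5 starts far away at 43311963. TRAF6, an adaptor of receptor signalling, rose by 0.66 on the log2 scale (limma adjusted p = 0.0194). API5 had a log2 fold change of 0.25 and did not pass (limma adjusted p = 0.220). TRAF6 lost its call in some alternatives (adjusted p up to 0.0809) and was at 0.27 after the GC correction described further on, where API5 was at -0.18 (limma adjusted p = 0.0333).

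DNTT (ENSG00000107447, chromosome 10, 96304396 to 96338564), a defining enzyme of early lymphoid precursors, was measured at a low level, on 55 to 176 reads. It had 1.60, 1.69 and 1.69 CPM in the depleted libraries, against 3.09, 4.22 and 3.51 CPM with asparagine. The depleted libraries lay close together and below all libraries with asparagine. DNTT fell 2.18-fold (-0.79 on the log2 scale, SE 0.14, adjusted p = 0.00440 by limma). The added 1 CPM shrinks that value, which was -1.01 with 0.25 CPM added.

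Levels of different genes were set side by side per kilobase of exon, with exons merged over all annotated transcripts. In depleted cells the order was CD79A (438 CPM per kilobase), IGLL1 (284), VPREB1 (159), CD79B (65.5), BTK (34.3), VPREB3 (18.7), RAG1 (18.4), RAG2 (10.8), DNTT (0.84) and BLNK (0.50). With asparagine it began with IGLL1 (945 CPM per kilobase), VPREB1 (579.9) and CD79A (422), followed by CD79B (113), VPREB3 (43.4), BTK (42.2), RAG1 (24.2), RAG2 (17.1), DNTT (1.83) and BLNK (0.85). CD79A thus stood above both surrogate light chain genes in each depleted library and below both in each library with asparagine. Neighbours whose ranges over libraries overlapped were CD79A and IGLL1, IGLL1 and VPREB1, VPREB3 and RAG1, RAG1 and RAG2, and DNTT and BLNK in depleted cells, and VPREB3 and BTK with asparagine.

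The members split by GC content in how the depleted libraries differed among themselves. The 5 genes with transcripts of 57.6% to 63.0% GC were higher in depleted library 1 than in depleted libraries 2 and 3, by 0.68 (CD79A) to 1.24 (IGLL1) on the log2 scale. The 5 with 41.6% to 46.6% GC were lower there, by 0.050 (DNTT) to 0.96 (RAG2). The trend of all 11344 tested genes with a GC value ran the same way, and at the GC content of CD79A and RAG1 it gave -0.70 and 0.66 for libraries 2 and 3 minus library 1, where those genes had -0.68 and 0.60.

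**Figure D3:**
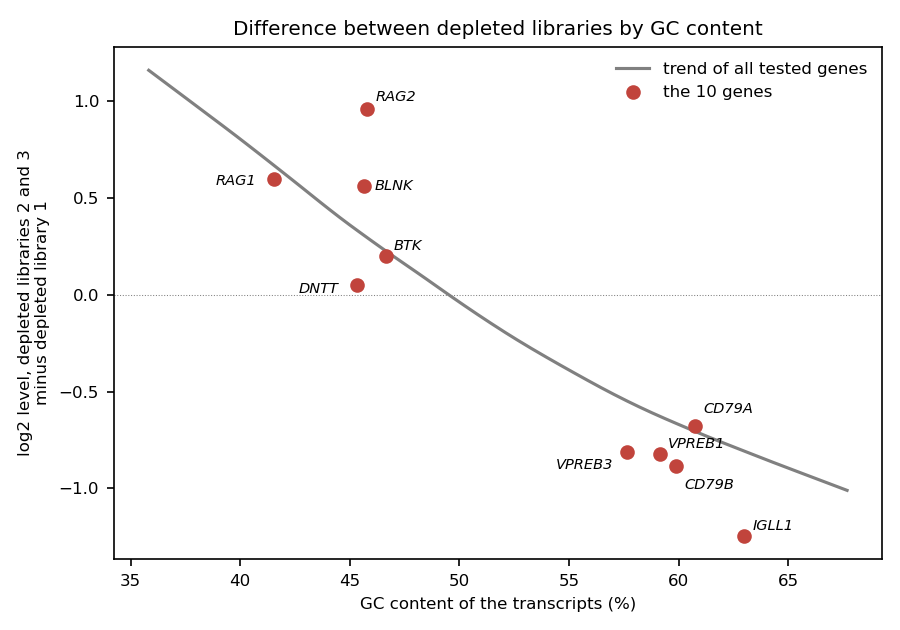
The horizontal axis is the GC content of a gene's transcripts in percent, and the vertical axis the log2 level in depleted libraries 2 and 3 (mean) minus depleted library 1. Points are the 10 genes and the line is the lowess trend of all tested genes, and CD79A, RAG1 and BTK lie near the line while RAG2 (0.96) lies above it and IGLL1 (-1.24) below it.

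Each gene was also compared after a lowess trend on GC content had been taken out of every library, a step that also takes out any difference between the groups that follows GC content. With it, 9 of the 10 genes were lower and 1, CD79A, higher, against 34.3% lower and 35.1% higher among all genes tested in that way. The surrogate light chain genes stayed lower, with log2 fold changes of -1.43 for VPREB1 (limma adjusted p = 3.94e-06) and -1.22 for IGLL1 (adjusted p = 8.60e-05). VPREB3 stayed lower too, at -0.78 (limma adjusted p = 0.000409). CD79A changed by 0.56 (limma adjusted p = 4.29e-05), with depleted libraries at 0.54, 0.58 and 0.55 above the mean with asparagine. CD79B changed by -0.34 (limma adjusted p = 0.00427), less than without the correction.

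The members with low GC content moved the other way under the correction. RAG1 changed by -0.88 (limma adjusted p = 1.06e-05), with depleted libraries at -0.85, -0.90 and -0.89, where the uncorrected values were -0.81, -0.24 and -0.19. RAG2 changed by -0.95 (limma adjusted p = 0.00284), and its depleted libraries still spread over 0.75, at -1.40, -0.80 and -0.64. BTK changed by -0.49 (limma adjusted p = 7.46e-05), BLNK by -0.89 (adjusted p = 0.0164) and DNTT by -1.05 (adjusted p = 0.000524). For RAG1, RAG2, BTK and BLNK the call thus depended on this step or on which libraries were used, and for RAG2 also on a replicate block. Without depleted library 1 and without the correction, 9 genes were lower, all but BLNK, where 41.3% of all genes were lower and 40.5% higher. CD79A was among those 9, at -0.21 (limma adjusted p = 0.0188), the opposite direction from its value after the correction. With the correction and without that library, 9 were lower and CD79A was higher at 0.57 (limma adjusted p = 6.38e-07), against 38.7% and 39.6% of all genes.

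**Figure D4:**
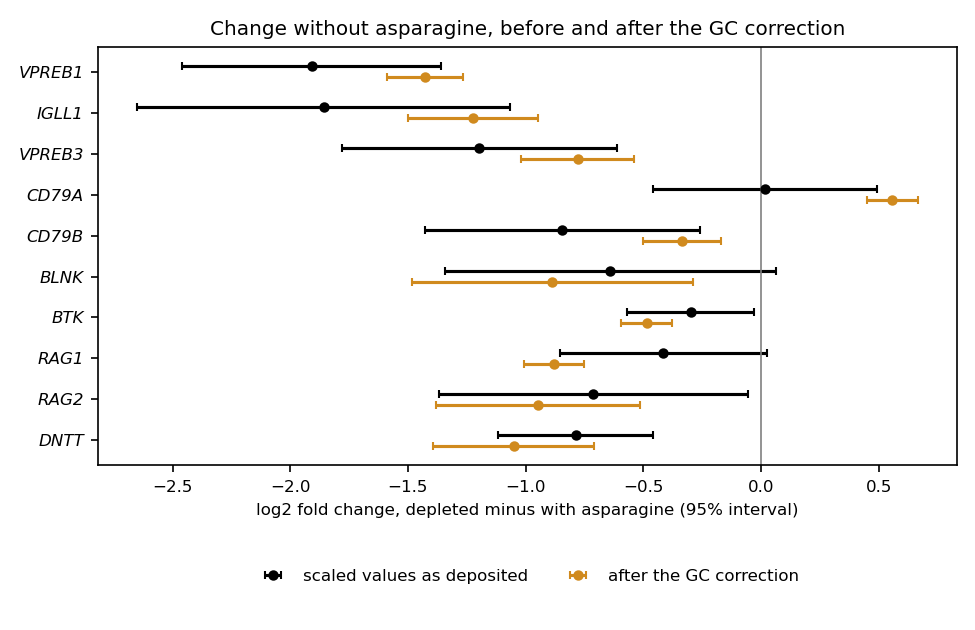
The horizontal axis is the log2 fold change, depleted minus with asparagine, with its 95% interval from limma, for the 10 genes down the page, as deposited (black) and after the GC correction (orange). VPREB1 (-1.91 and -1.43), IGLL1, VPREB3, CD79B and DNTT stay below 0 in both, and CD79A moves from 0.016 to 0.56.

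Partners of the receptor moved in both directions. Of 24 listed signalling genes 22 were tested, of which 7 rose, 8 fell and 7 did not pass (median log2 fold change -0.13, beside 0.0098 over all genes). Among all tested genes 25.1% rose and 26.2% fell. FYN, a SRC-family kinase, rose to 335 ± 29.1 CPM in depleted cells, against 68.9 ± 4.89 CPM with asparagine, a log2 fold change of 2.26 (limma adjusted p = 8.56e-05). LYN, the SRC-family kinase known to start receptor signalling in B cells, rose by 0.94 on the log2 scale (adjusted p = 0.00138), and PTPRC, the phosphatase CD45, by 0.98 (adjusted p = 0.0343). BLK, a SRC-family kinase of the same list, fell, with a log2 fold change of -0.93 (limma adjusted p = 0.0139) and -0.43 after the GC correction. Its call was lost in some alternatives (adjusted p up to 0.0597). BLK was named after its values were seen, because FYN and LYN of the same family rose. PIK3CD, the catalytic subunit of the lymphocyte PI3 kinase, fell to 183 ± 42.1 CPM in depleted cells, against 418 ± 25.7 CPM with asparagine (log2 fold change -1.21, limma adjusted p = 0.00205). After the GC correction PTPRC was at 0.43 and PIK3CD at -0.78, and the PTPRC call was lost in some alternatives (adjusted p up to 0.117). SYK, chosen after its values were seen because it acts first on the CD79 tails, differed by 0.024 on the log2 scale (limma adjusted p = 0.858).

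Proteins that repair the breaks made by RAG1 and RAG2 belong to nonhomologous end joining. Of 14 listed partners of recombination and end joining, 6 fell, 2 rose and 6 did not pass (median -0.11). The shares over all tested genes were 26.2% lower and 25.1% higher. XRCC6, which encodes the DNA end-binding protein Ku70, fell to 207 ± 17.5 CPM in depleted cells, against 430 ± 35.9 CPM with asparagine (log2 fold change -1.05, limma adjusted p = 0.00100). HMGB1, a DNA-bending protein that assists the recombinase, fell by 0.78 on the log2 scale (adjusted p = 0.00258), and C9orf142, the older symbol of the Ku-binding factor gene PAXX, by 1.25 (adjusted p = 0.0261). LIG4, the ligase that seals the joint, rose by 1.48 (adjusted p = 0.0185). HMGB2, named after its values were seen because HMGB1 of the same list fell, rose by 0.47 (limma adjusted p = 0.0114). After the GC correction LIG4 was at 0.73, HMGB1 at -1.39 and HMGB2 at 0.27. The calls of LIG4, C9orf142 and HMGB2 were lost in some of the alternatives, with adjusted p-values up to 0.0710, 0.0895 and 0.0579.

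Among immunoglobulin genes, IGLL5, a lambda-like gene with a sequence close to IGLL1, was the member of 9 listed with values. The heavy chain genes IGHM and IGHD of that list were not analysed here, so the heavy chain of the receptor was not assessed. On only 12 to 120 reads per library, IGLL5 was at 0.665 ± 0.504 CPM in depleted cells and 2.82 ± 0.446 CPM with asparagine (SD, n = 3 each). Its log2 fold change was -1.23 (limma adjusted p = 0.00509), and -0.62 after the GC correction. It was named after its values were seen, since it lies below the level set for naming.

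Of 16 regulators known to act on these genes, 6 fell, 3 rose and 7 did not pass (median -0.19), where 26.2% of all tested genes fell and 25.1% rose. ID3, an inhibitor of E2A proteins, fell to 29.5 ± 10.7 CPM in depleted cells, against 166 ± 19.8 CPM with asparagine, a log2 fold change of -2.50 (limma adjusted p = 0.000577). SPIB, an ETS factor of B cells, fell by 1.47 on the log2 scale (adjusted p = 0.00151) and IRF8, an interferon regulatory factor, by 0.91 (adjusted p = 0.00244). TCF3, the gene of the E2A proteins, fell to 659 ± 214 CPM in depleted cells, against 1200.3 ± 92.2 CPM with asparagine (log2 fold change -0.91, limma adjusted p = 0.0138). After the GC correction the TCF3 change was -0.34 (limma adjusted p = 0.000556), that of SPIB -0.86 and that of ID3 -2.10. The TCF3 call was lost when some single libraries were left out (adjusted p up to 0.0564).

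**Figure D5:**
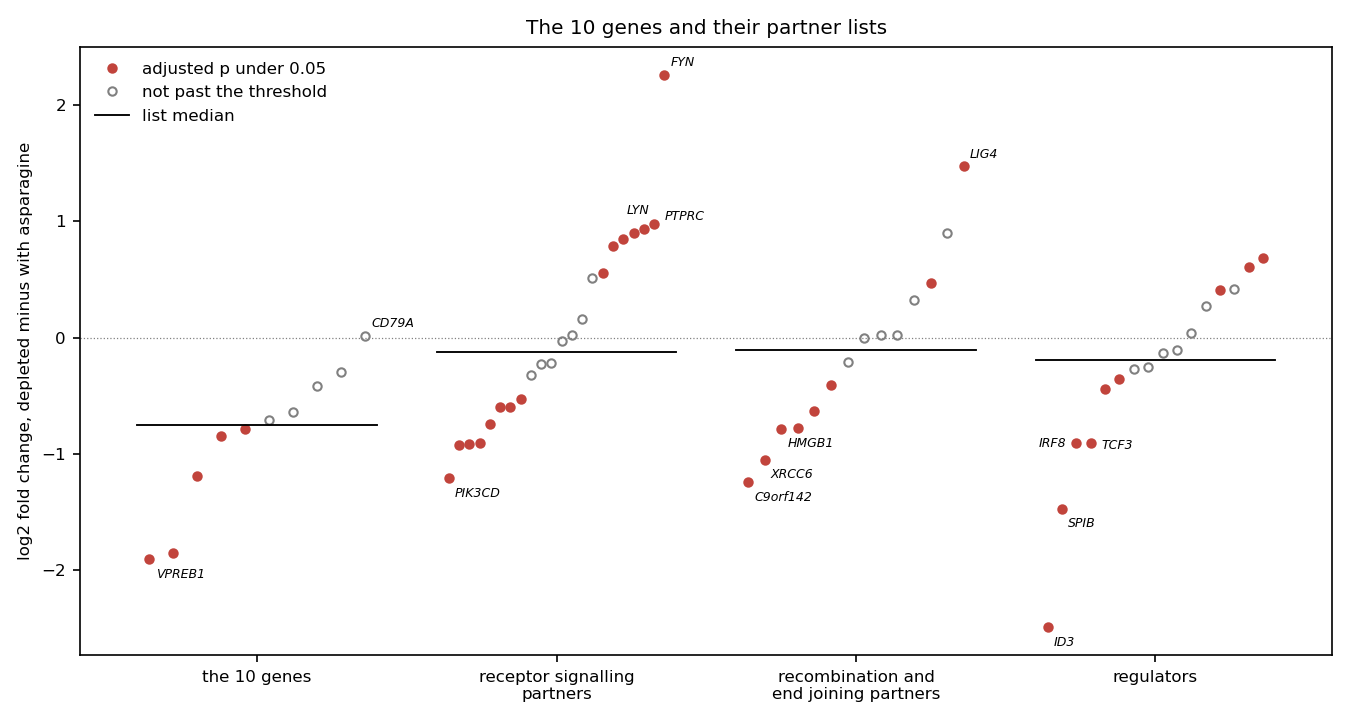
The vertical axis is the log2 fold change, depleted minus with asparagine, and each point is a gene, ordered by that value within its list along the horizontal axis, filled where the adjusted p is under 0.05, with the list median as a line. The 10 genes have a median of -0.75 and no filled point above 0, while each partner list has filled points on both sides of 0. Past the same threshold 26.2% of all tested genes were lower and 25.1% higher, and the lists were not tested against these shares.

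Across the 6 libraries on the log2 scale, the genes whose values ran most like those of VPREB1 were NTHL1, a base excision repair gene, ISOC2 and GSTK1, each with Pearson's r above 0.9999. These points share their libraries and the difference between the arms, and r is given as a description. NTHL1 had 14.1 ± 7.67 CPM in depleted cells and 87.1 ± 3.74 CPM with asparagine (SD, n = 3 each).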

How the data were processed

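The submitters' processing notes name FastQC, STAR and featureCounts (Subread) with GRCh38. The sources used here do not give versions, annotation, strand setting, scaling or the filter on low genes. The authors deposited 1 value per gene and library, a signal named normalized CPM. Columns were matched to samples by arm and replicate number. Each value was a whole multiple of what 1 read is worth in its library (100% within 1e-06 of a read), which gave the reads quoted. The filter was 1 CPM or more in 3 libraries or more, which left 11892 genes.

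In R 4.3.3, limma 3.58.1 was fitted to log2(CPM + 1) over all 6 libraries with the group as its term and an intensity trend. Tests were two-sided, with Benjamini-Hochberg adjustment over all genes and a threshold of 0.05. Fold values are ratios of mean CPM. Partner genes were named by size of change, up to 4 per list among those past the threshold with a mean of at least 5 CPM in the higher group, beside all members, the measured neighbours of RAG1 and RAG2 and the 3 genes most like VPREB1. Positions, lengths and GC content came from GENCODE 29 (GRCh38), and promoter windows from RefSeq (GRCh38.p14), where 9 of the 10 symbols matched. The GC correction used a lowess span of 0.3. The members, lists and tests were chosen with earlier results of these data known. The fits were tested on simulated data. Other pseudocounts, filters, scalings, moderation, a replicate block and each library left out were tried.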

Additional observations from a re-analysis of the deposited data

How the results depend on the processing

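Over 22 alternatives, VPREB1, IGLL1, VPREB3 and DNTT stayed lower wherever they were tested. Under the GC correction 9 members were lower and 1 higher, also with the replicate block (9 and 1, among 3608 lower and 3703 higher genes) or when depleted library 1 was left out as well (9 and 1). The count of members lower was 4 to 9, and higher 0 to 0, when 1 library was left out. CD79A changed sign without library 3 with asparagine (-0.04) and without depleted library 1 (-0.21), within a range of -0.21 to 0.15 when 1 library was left out. At a threshold of 0.01, 1612 genes were higher and 1703 lower. Leaving out 1 library gave 1728 to 4812 higher and 1814 to 4913 lower, and the GC correction without depleted library 1 gave 4487 higher. Signalling partners had 4 higher and 5 lower at 0.01, 11 higher with the GC correction (11 with the block too, 13 without depleted library 1), and, with 1 library left out, 4 to 9 higher and 5 to 11 lower. End joining partners had 0 higher and 3 lower at 0.01, 4 higher with the GC correction (4 with the block, 5 without depleted library 1), and, with 1 library left out, 0 to 5 higher and 3 to 7 lower. Regulators had 1 higher and 3 lower at 0.01, 5 higher with quantile normalization, and, with 1 library left out, 1 to 5 higher and 3 to 9 lower. The cause was not tested. The replicate numbers are not known to mark a shared batch. Same-numbered libraries deviated together for number 3 (r = 0.69) but not for numbers 1 and 2 (r = 0.083 and -0.65). Not every library correlated best with its own number. With the replicate block 6 members were lower, RAG2 joining them (limma adjusted p = 0.0433), and 2824 genes were higher and 2989 lower. A count test was not run because the table holds scaled values, and voom weights on the recovered reads, added after seeing the data, called 5 members lower and 0 higher. BLNK, DNTT, IGLL5 and C11orf74 have no value with the filter at 5 CPM. These genes rest on few reads, which limits what can be said of them.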
